A study of Tursiops truncatus with 31 samples.

Results

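The glucocorticoid receptor and a set of genes known to respond to it were followed through 1 year in peripheral blood of bottlenose dolphins (Tursiops truncatus). The 10 genes were defined by their names, with no measured value in the rule but with earlier results of these data known: the receptor gene NR3C1 and the target genes FKBP5, TSC22D3, DUSP1, KLF9, ZBTB16, SGK1, CXCR4, DDIT4 and IL1R2. Of these 10, 7 were named among the 9610 genes of the genome-guided expression table, 8865 of which carry a symbol. They are NR3C1 (ENSTTRG00000003260), FKBP5 (ENSTTRG00000016526), TSC22D3 (ENSTTRG00000013932), DUSP1 (ENSTTRG00000010606), KLF9 (ENSTTRG00000001149), DDIT4 (ENSTTRG00000009757) and IL1R2 (ENSTTRG00000005877). ZBTB16, SGK1 and CXCR4 were not analysed here. The table holds genes with a mean of at least 1 FPKM, a read density corrected for transcript length and for the size of the library, so each value below is for a gene that had already passed that limit.

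Whole blood was drawn from 4 managed animals at one facility at roughly monthly intervals, in the morning after an overnight fast, and RNA depleted of globin transcripts was sequenced. The females were Keo (12 years, 9 libraries) and Pele (28 years, 7 libraries), and the males were Hua (5 years, 8 libraries) and Kai (17 years, 7 libraries), all judged healthy at sampling. The 31 libraries comprised 16 from females and 15 from males, of which 8 came from summer (July, August and September) and 8 from winter (December and February). Libraries of 1 animal share that animal, and with 2 animals of each sex a difference between the sexes cannot be told apart from a difference between individuals.

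Glucocorticoids are steroid hormones of the adrenal cortex whose release follows the daily cycle and rises with stress. In human and mouse cells, from which the roles given here are known, the hormone binds the receptor encoded by NR3C1, which is held ready by heat shock chaperones, then moves to the nucleus and changes the transcription of target genes. In blood the hormone is known for restraining inflammatory signaling and for moving leukocytes between the circulation and the tissues. Blood is a mixture, and in these bulk libraries fewer cells of a type and less RNA per cell cannot be told apart.

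Blood cell markers were present in every library. Summed FPKM over the measured markers ran from 2786 to 17287 for neutrophils (10 of 18 listed genes measured), from 8979 to 42101 for monocytes (11 of 12), from 173.4 to 1106 for T cells (14 of 15) and from 17427 to 49671 for the erythroid lineage (13 of 15). The July and August libraries of Pele stood apart, with summed FPKM of 11 interferon-induced genes of 999.9 and 1571, against 93.55 to 701.6 in the other 29 libraries. Several results that rest on those libraries are given with and without them. Pairwise contrasts of animals, and the SD and shares of variance on scaled values, are given with all libraries only.

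The 7 transcripts differed widely in FPKM, which is set per length. The paper reports that many reads fell outside the annotated parts of the genome. Levels of different genes are placed side by side here without a check of how complete each gene model is. TSC22D3, which encodes the leucine zipper protein GILZ, an inhibitor of inflammatory transcription factors, was the most abundant at 178.1 ± 72.8 FPKM (SD, n = 31). Its mean lay above that of 95.0% of all genes in the table. DUSP1, a phosphatase that switches off stress-activated MAP kinases, followed at 74.1 ± 47.5 FPKM (SD, n = 31). IL1R2, a decoy receptor that binds interleukin-1 without signaling, averaged 43.0 ± 36.8 FPKM (SD, n = 31). The receptor itself, NR3C1, averaged 14.4 ± 6.90 FPKM (SD, n = 31) and was detected in all libraries.

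The remaining targets had lower FPKM. FKBP5, a co-chaperone that lowers the affinity of the receptor for hormone and is itself induced by it, averaged 7.33 ± 6.29 FPKM and was listed at 0 in 1 library. DDIT4 (REDD1), an inhibitor of the growth kinase mTORC1, averaged 2.41 ± 2.40 FPKM and was listed at 0 in 9 libraries. KLF9, a zinc finger transcription factor, averaged 1.48 ± 2.01 FPKM and was listed at 0 in 12 libraries (SD, n = 31 for each). With so many zeros, the differences given below for DDIT4 and KLF9 rest on few values.

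This order of levels was stable from library to library for most neighbors. TSC22D3 exceeded DUSP1 in 28 of 31 libraries, IL1R2 exceeded NR3C1 in 28, NR3C1 exceeded FKBP5 in 29 and FKBP5 exceeded DDIT4 in 28. DUSP1 exceeded IL1R2 in 21 libraries only, and in Keo the mean of IL1R2 was the higher. DDIT4 exceeded KLF9 in 16 of 31 libraries, and some of the rest held 0 for both genes. Within libraries their mean difference was 0.44 on the log2(FPKM + 1) scale, with an SD of 1.28.

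**Figure D1:**
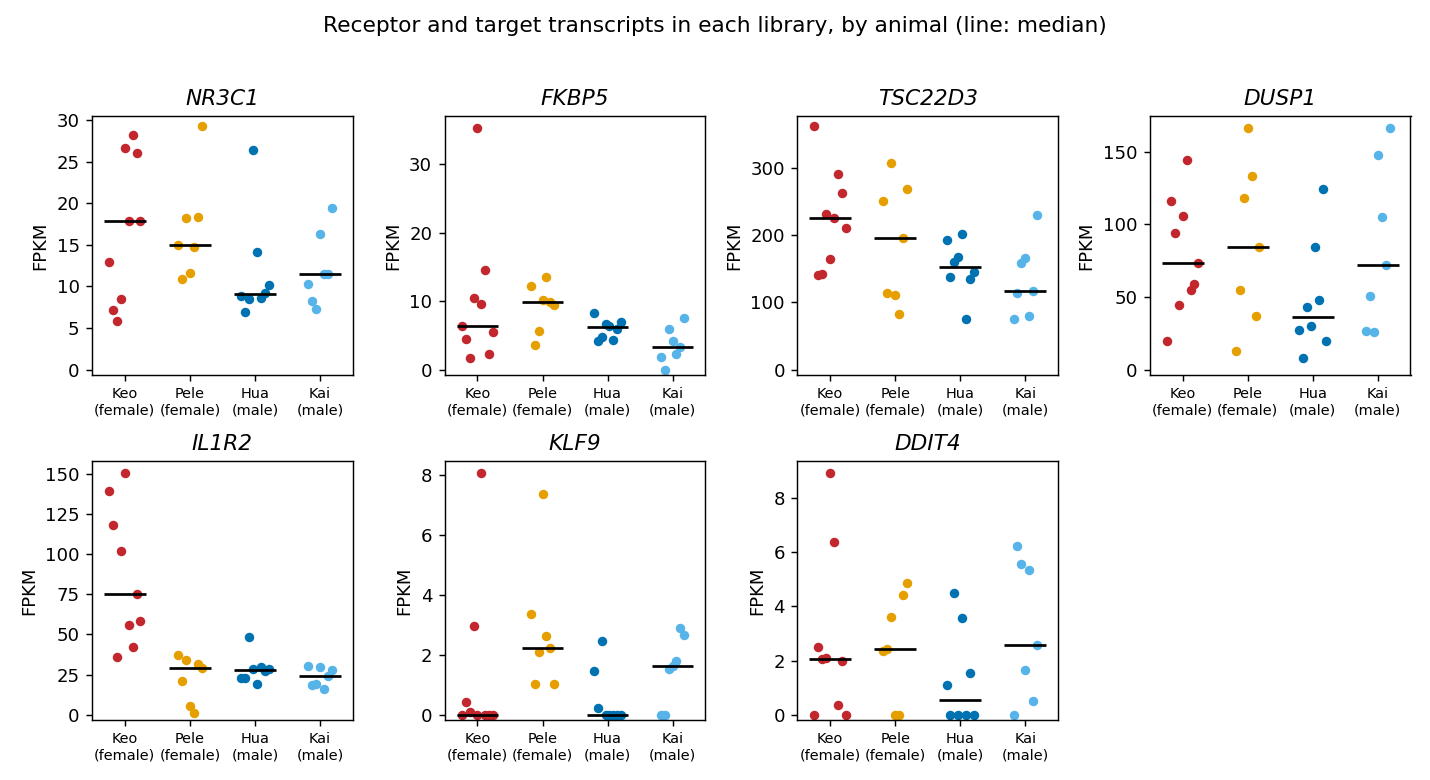
FPKM of each measured gene (vertical axis, own scale per gene) in every library of the females Keo and Pele and the males Hua and Kai. Each point is 1 library and the line is the median of the animal. IL1R2 in Keo ran from 36.02 to 150.48 FPKM, while the other genes overlapped widely between animals.

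The transcripts also differed in how much they varied. After the libraries were brought to a common scale by median ratios, the SD of log2(FPKM + 1) over the 31 libraries was 0.40 for TSC22D3 and 0.44 for NR3C1, both below the median of 0.63 over all genes. It was 1.10 for DUSP1, 1.09 for DDIT4 and 1.16 for IL1R2, and 0.83 and 0.93 for FKBP5 and KLF9. Differences between the 4 animals accounted for 51.8% of the variance of IL1R2, against a median of 13.6% over all genes. The same share was 12.5% for DUSP1 and 6.57% for NR3C1, so nearly all of the variation of these 2 genes lay within animals.

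Between the animals, IL1R2 was the only member of the 7 to pass the test. It ran from 36.0 to 150.5 FPKM in Keo, with a median of 75.1 (n = 9). In Pele it ran from 1.13 to 37.4 FPKM with a median of 29.1 (n = 7), in Hua from 19.4 to 48.5 with a median of 28.1 (n = 8), and in Kai from 16.2 to 30.5 with a median of 24.4 (n = 7). Every library of Keo was above the highest library of Kai, and the range of Keo overlapped that of Pele through the February library of Pele only and that of Hua through its April library only. On scaled values the February library of Kai, at 51.8, lay above 4 of the 9 libraries of Keo, the lowest of which was 35.0. The means of the animals differed (F test over animals, limma with Benjamini-Hochberg adjustment, adjusted p = 0.00308), where 10.3% of all genes passed.

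In pairwise contrasts of the same limma fit, Keo exceeded Kai by 1.69 ± 0.42 (SE; adjusted p = 0.0164) and Hua by 1.45 ± 0.40 (SE; adjusted p = 0.0416) on the log2 scale. The difference Pele minus Keo was -2.20 ± 0.42 (SE; adjusted p = 0.00481). The last of these passed in only 0.239% of all genes, while 7.12% passed for Keo minus Kai and 2.6% for Keo minus Hua. After median-ratio scaling only the contrast with Pele passed (adjusted p = 0.00227), and those with Kai and Hua had adjusted p = 0.0781 and 0.105. No member passed for Pele minus Hua, Pele minus Kai or Kai minus Hua, for which 3.54%, 8.7% and 2.54% of all genes passed.

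The F test for IL1R2 also passed without the low values of Pele. Without the July and August libraries of Pele, IL1R2 in Pele averaged 30.6 ± 6.19 FPKM (SD, n = 5), and the F test over animals gave an adjusted p of 0.000136 in limma. That test does not say which animal differs, and pairwise contrasts are not given without these libraries. With all libraries of Pele left out, Keo exceeded the males by 1.56 ± 0.23 on the log2 scale of deposited values (SE; limma adjusted p = 0.000267). Across 37 alternative settings the adjusted p of the F test for IL1R2 stayed between 0.000136 and 0.0086. Summed neutrophil markers had a median of 8772 FPKM in Keo (5805 to 17287), 8867 in Pele (5846 to 12152), 6065 in Hua (4028 to 8604) and 5442 in Kai (2786 to 6728), and their part in the result was not tested.

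Of the other members, FKBP5, TSC22D3 and KLF9 reached an unadjusted p under 0.05 between animals, as did 30.7% of all genes. Their adjusted p were 0.122, 0.142 and 0.107 in limma. KLF9 was listed at 0 in 5 of 8 libraries of Hua and 5 of 9 of Keo, but in none of the 7 of Pele (1.01 to 7.36 FPKM, median 2.21). Leaving out the August library of Keo, the highest of all at 8.04 FPKM, brought KLF9 past the threshold (range 1.44, adjusted p = 0.0319). FKBP5 was lowest in Kai, at 0 to 7.6 FPKM with a median of 3.28.

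None of the 7 genes passed the comparison of females with males. All 7 estimates were above 0, as was the median over all genes (0.34 on the log2 scale), and in this comparison 12.1% of all genes were called higher and 0.937% lower in females. The libraries of females also carried larger median-ratio size factors, at 1.19 ± 0.24 in females (SD, n = 16) and 0.92 ± 0.22 in males (SD, n = 15). After scaling, the median over all genes was 0.04 and the calls over all genes became 57 higher and 175 lower. Relative to the 0.34 of all genes, the deposited estimates ran from -0.11 (DDIT4) to 0.41 (FKBP5).

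TSC22D3 and FKBP5 came nearest to a call. TSC22D3 ran from 82.1 to 362.9 FPKM in females with a median of 218.1, against 75.0 to 230.6 in males with a median of 145.6. The ranges overlapped, and the difference was 0.51 ± 0.19 (SE; limma adjusted p = 0.0701), or 0.17 beyond the median of all genes. FKBP5 ran from 1.64 to 35.3 FPKM in females with a median of 9.50, against 0 to 8.27 in males with a median of 4.72. Its difference was 0.75 ± 0.31 (SE; limma adjusted p = 0.0931), or 0.41 beyond that median. These 2 genes were the members with an unadjusted p under 0.05, which 32.0% of all genes had in this comparison. After scaling the estimates were 0.14 for TSC22D3 and 0.46 for FKBP5 (limma adjusted p = 0.736 and 0.51).

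The receptor also fell short of the threshold. NR3C1 ran from 5.85 to 29.3 FPKM in females with a median of 16.4, against 6.86 to 26.4 in males with a median of 10.2. The difference of 0.44 ± 0.22 (SE; limma adjusted p = 0.159) became 0.09 after scaling. DUSP1 (0.48), IL1R2 (0.60), KLF9 (0.38) and DDIT4 (0.22) had SE of 0.34 to 0.39 and adjusted p of 0.281 to 0.698.

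Which libraries entered decided the calls between the sexes. Without the July and August libraries of Pele, an alternative chosen after seeing the data, TSC22D3 (0.66 ± 0.18, SE, limma adjusted p = 0.021) and IL1R2 (1.09 ± 0.24, SE, adjusted p = 0.00573) passed as higher in females. The median over all genes was 0.35 there. This and the settings below used deposited FPKM and were not run on scaled values. TSC22D3 also passed when the July library of Hua (adjusted p = 0.048), the December library of Kai (0.0405), the March library of Pele (0.0433) or the August library of Pele (0.0315) was left out, and FKBP5 without the April library of Keo (0.0433). In those settings the share of all genes called in either direction was 17.2%, 17%, 15.8%, 12.3% and 17.2%, against 13% with all libraries and 10.2% without the July and August libraries of Pele. IL1R2 also passed without the August library of Pele (0.88, limma adjusted p = 0.0464). The difference of IL1R2 followed Keo: without Pele it was 1.56 ± 0.23 (SE; limma adjusted p = 0.000267), and without Keo it was -0.64 ± 0.39 (SE; adjusted p = 0.286).

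By sex, the calls differed between the lists of blood cell markers. In females, 7 of 10 neutrophil markers were called higher, beside 12.1% of all genes. The 10 summed to 5805 to 17287 FPKM in females (median 8823), against 2786 to 8604 in males (median 5895). Of 14 T cell markers 1 was called higher, and of 8 B cell markers 0. Of 13 erythroid markers 2 were called lower in females, beside 0.937% of all genes. Their sums were 17427 to 40743 FPKM in females (median 29485), against 21711 to 49671 in males (median 36324). After scaling, 0 neutrophil markers were called and 3 erythroid markers were called lower. On that scale 57 of all 9610 genes were called higher and 175 lower. The part of these cells in the values of the 7 genes was not tested.

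**Figure D2:**
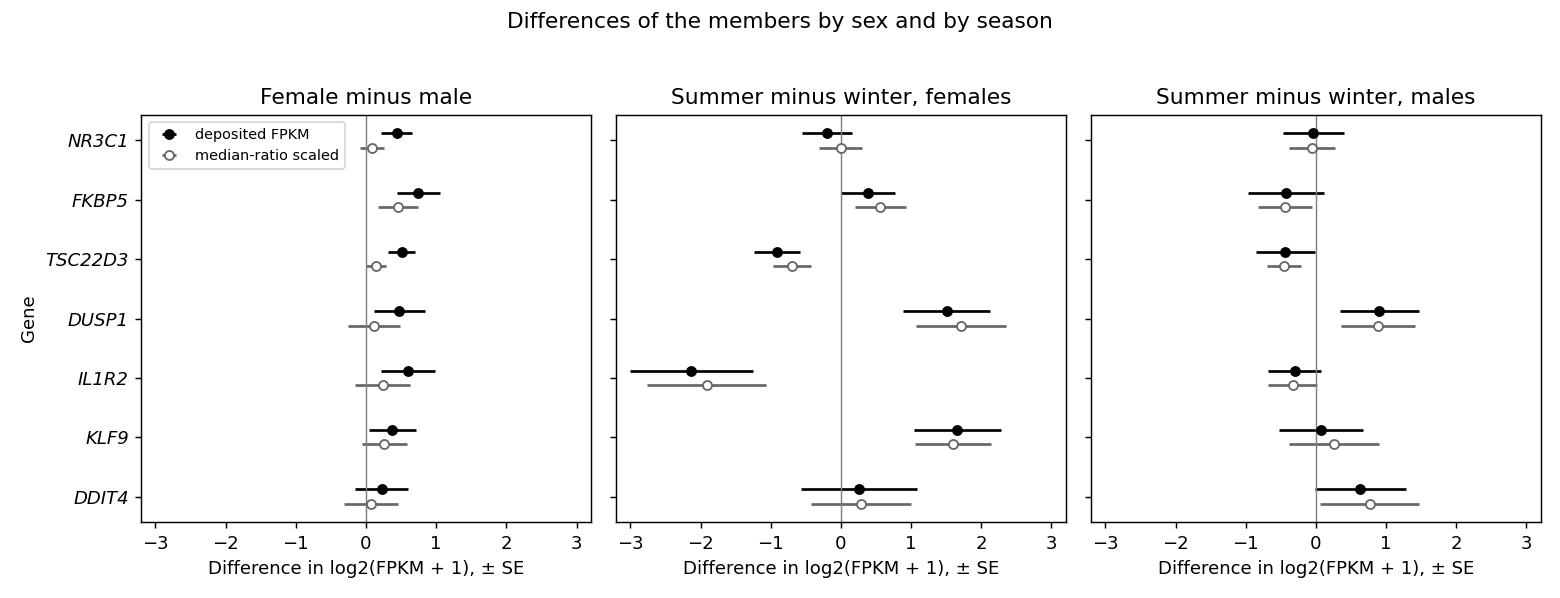
Difference in log2(FPKM + 1) of each measured gene (horizontal axis, ± SE) for females minus males (31 libraries), and for summer minus winter in females and in males (8 libraries each). Filled points are deposited FPKM and open points are median-ratio scaled. By sex all filled points lie between 0.22 and 0.75, while in females by season IL1R2 reached -2.14, or -0.37 without the July and August libraries of Pele, and KLF9 1.66.

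No member passed the comparison of summer with winter blood. Over all genes 0 (0%) were called in limma for summer minus winter, and 2.97% had an unadjusted p under 0.05. Of the 7 members, DUSP1, TSC22D3 and IL1R2 had an unadjusted p under 0.05, and none of the 3 held after adjustment over all genes.

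DUSP1 ran from 36.6 to 166.0 FPKM in summer with a median of 94.4, against 13.1 to 166.5 in winter with a median of 26.8 (n = 8 each). The ranges overlapped because of the December libraries of Kai (166.5), Pele (84.4) and Keo (73.2), while the other 5 winter libraries lay below every summer library. The difference was 1.21 ± 0.45 on the log2 scale (SE; limma unadjusted p = 0.013, adjusted p = 0.999). It stayed between 0.96 and 1.51 over the 26 alternatives and was positive in each.

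TSC22D3 and IL1R2 had the opposite sign. TSC22D3 ran from 75.8 to 225.7 FPKM in summer with a median of 114.3, against 75.0 to 362.9 in winter with a median of 220.6, a difference of -0.67 ± 0.31 (SE; limma unadjusted p = 0.0407). IL1R2 ran from 1.13 to 55.96 FPKM in summer with a median of 21.9, against 22.6 to 139.1 in winter with a median of 29.8, a difference of -1.22 ± 0.52 (SE; limma unadjusted p = 0.0287). Both had an adjusted p of 0.999. Without the July and August libraries of Pele, the estimate for DUSP1 was 0.96 ± 0.48, that for IL1R2 was -0.49 ± 0.38 and that for TSC22D3 was -0.55 ± 0.34 (SE).

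For the receptor, its co-chaperone and DDIT4 the seasonal estimates were smaller than their SE. NR3C1 averaged 13.5 ± 3.37 FPKM in summer and 15.5 ± 6.75 FPKM in winter (SD, n = 8 each), and FKBP5 averaged 7.44 ± 3.96 FPKM in summer and 7.27 ± 3.03 FPKM in winter (SD, n = 8 each). Their differences were -0.12 ± 0.29 and -0.02 ± 0.38 (SE), and that of FKBP5 was 0.06 after scaling. DDIT4 differed by 0.45 ± 0.53 and KLF9 by 0.87 ± 0.49 (SE). KLF9 was listed at 0 in 2 of 8 summer libraries and 4 of 8 winter libraries.

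Within each sex, no member passed for season either. In limma 0 (0%) of all genes were called in females and 0 (0%) in males, with unadjusted p under 0.05 for 5.84% and 1.64% of genes and for 4 and 0 members. In females the differences were -0.91 ± 0.33 for TSC22D3, 1.51 ± 0.62 for DUSP1, 1.66 ± 0.62 for KLF9 and -2.14 ± 0.88 for IL1R2 (SE; limma adjusted p = 0.735 for each). In males the same genes gave -0.43 ± 0.41, 0.90 ± 0.56, 0.07 ± 0.60 and -0.30 ± 0.38 (SE; adjusted p = 1 for each). The median over all genes was -0.16 in females and 0.05 in males, and 0.02 and 0.04 after scaling. Without the July and August libraries of Pele, which leaves 2 summer libraries of females, the estimates in females were -0.35 ± 0.29 for TSC22D3, 1.00 ± 0.79 for DUSP1, 1.65 ± 0.81 for KLF9 and -0.37 ± 0.57 for IL1R2 (SE).

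The single values show how few libraries carry this. KLF9 in females measured 8.04, 7.36, 2.61 and 2.21 FPKM in summer, against 3.37, 1.01, 0 and 0 FPKM in winter. IL1R2 in females measured 55.96, 31.8, 5.50 and 1.13 FPKM in summer, against 139.1, 58.6, 37.4 and 29.1 FPKM in winter. In the winter libraries of males IL1R2 lay within 22.6 to 30.5 FPKM, and in their summer libraries within 16.2 to 29.7 FPKM. Whether the change with season differed by sex was tested directly, and 0 (0%) of all genes and 0 of 7 members were called in limma. No member had an unadjusted p under 0.05 in that test, against 2.42% of all genes, and the estimates farthest from 0 were -1.83 ± 1.02 for IL1R2 and 1.59 ± 0.89 for KLF9 (SE). Without the July and August libraries of Pele these were -0.062 ± 0.66 and 1.57 ± 1.02 (SE).

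The July and August libraries of Pele, which had the highest interferon-induced sums, held the lowest or highest values of that animal for several members. IL1R2 measured 5.50 and 1.13 FPKM there, the lowest of all 31 libraries, where the other 29 ran from 16.2 to 150.5. MMP8, a neutrophil granule protease named after its values were seen, was listed at 0 in both. It is 1 of 10 measured neutrophil markers, which summed to 12031 and 8802 FPKM, inside the range of the other libraries. The values of MMP8 in other libraries are not given here. TSC22D3 measured 111.4 and 82.1 FPKM, the lowest values of Pele. DUSP1 measured 166.0 and 133.3 FPKM, the highest values of Pele. DDIT4 was listed at 0 in both, against 2.36 to 4.85 FPKM in the other 5 libraries of Pele. FKBP5 measured 10.2 and 13.5 FPKM, of which only the August value was above the 12.29 of February. KLF9 measured 7.36 FPKM in July, the highest of Pele, and 2.61 in August. NR3C1, at 11.55 and 14.77 FPKM, lay inside the range of the other libraries of Pele. What sets these libraries apart was not tested.

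**Figure D3:**
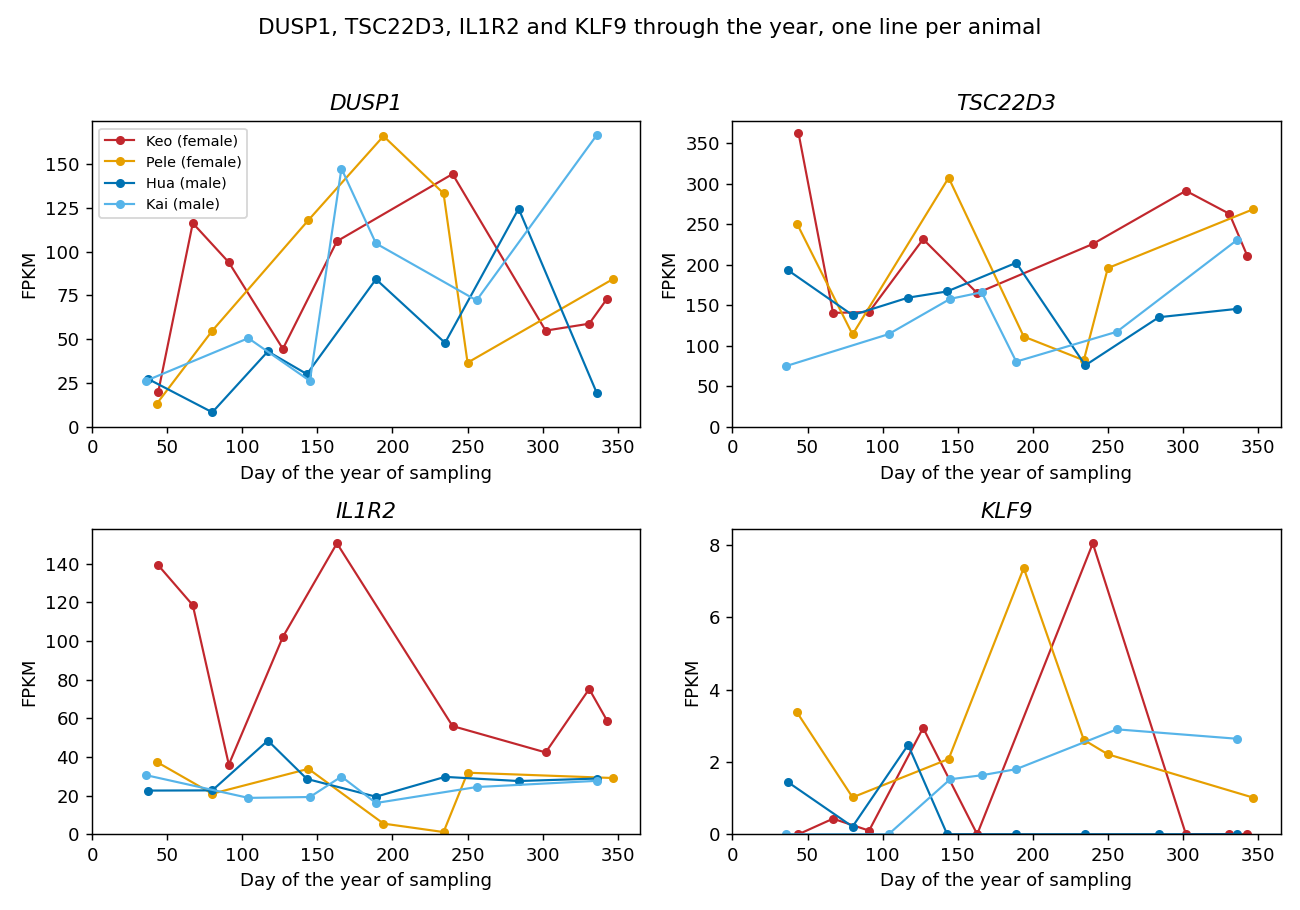
FPKM of DUSP1, TSC22D3, IL1R2 and KLF9 (vertical axes) against the day of the year on which blood was drawn, with 1 line per animal. DUSP1 started the year between 13.08 and 27.36 FPKM in all 4 animals, and IL1R2 of Pele dropped to 5.50 and 1.13 FPKM in July and August.

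Across the whole year, a cosine curve with a period of 1 year was fitted to all 31 libraries. In limma it was called for 0 (0%) of all genes and 0 of 7 members, and 7.59% of genes and 1 member had an unadjusted p under 0.05. That member was DUSP1, with an amplitude of 0.81 on the log2 scale and a peak at day 230 (limma unadjusted p = 0.00529, adjusted p = 0.615). The median amplitude over all genes was 0.25. NR3C1 had an amplitude of 0.38 with a peak at day 281 (adjusted p = 0.678), and IL1R2 and TSC22D3 had amplitudes of 0.62 and 0.26 with peaks at days 41 and 5 (adjusted p = 0.683 and 0.744). The amplitude of IL1R2 was 0.38 without the August library of Pele and 0.22 without its July and August libraries, where those of DUSP1 and TSC22D3 were 0.72 and 0.20. After scaling, DUSP1, TSC22D3 and IL1R2 had an unadjusted p under 0.05, with adjusted p of 0.666, 0.666 and 0.703.

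Much of the course of DUSP1 lay in February, a split noticed in the values and so given with no test. The 4 February libraries measured 19.9 FPKM in Keo, 13.1 FPKM in Pele, 27.4 FPKM in Hua and 26.3 FPKM in Kai. The other 27 libraries ran from 8.22 to 166.5 FPKM with a median of 73.2. February held the lowest library of Keo and of Pele and the next to lowest of Kai, whose lowest was May at 26.2 FPKM. In Hua, March (8.22 FPKM) and December (19.4 FPKM) were lower. The December libraries, counted as winter as well, averaged 85.9 ± 60.8 FPKM, against 21.7 ± 6.60 FPKM in February (SD, n = 4 each). December was above February in Keo, Pele and Kai but below it in Hua. On scaled values February ran from 10.1 to 44.5 and December from 23.0 to 137.2.

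Of the cell markers, the monocyte and T cell sums are given here, and in February both overlapped those of the other months. Summed monocyte markers were 13973 to 22858 FPKM in February (median 19802), against 8979 to 42101 in the other 27 libraries (median 24726), and summed T cell markers were 173.4 to 590.3 FPKM (median 504.1), against 199.7 to 1106 (median 499.4). Size factors averaged 1.09 ± 0.38 in February (SD, n = 4) and 1.06 ± 0.25 in the other libraries (SD, n = 27). The part of cell makeup in the February values of DUSP1 was not tested.

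Several other leukocyte transcripts tracked DUSP1 closely from month to month. With the mean of each animal subtracted, the genes most like DUSP1 over the 31 libraries included EVI2B, a leukocyte membrane protein (r = 0.96), and CD74, the invariant chain of MHC class II (r = 0.93). These r values are a description of the closest of all genes, and the points share their libraries and scaling. Within single animals, r ran from 0.94 to 0.97 for EVI2B and from 0.84 to 0.99 for CD74. Without the July and August libraries of Pele the values were 0.95 and 0.93.

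Both were more abundant than DUSP1, at 189.8 ± 101.7 FPKM for EVI2B and 1110 ± 599 FPKM for CD74 (SD, n = 31). EVI2B measured 69.6 to 104.6 FPKM in February with a median of 81.3 (n = 4), against 44.5 to 383.5 in the other months with a median of 210.7 (n = 27). CD74 measured 308.3 to 834.7 FPKM in February, with a median of 606.1 (n = 4). In the other months CD74 ran from 339.0 to 3082 FPKM, with a median of 1019 (n = 27). In all, 92 genes reached an r of 0.8 with DUSP1. Only 1 gene did so with IL1R2, and none with NR3C1, FKBP5, TSC22D3, KLF9 or DDIT4.

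**Figure D4:**
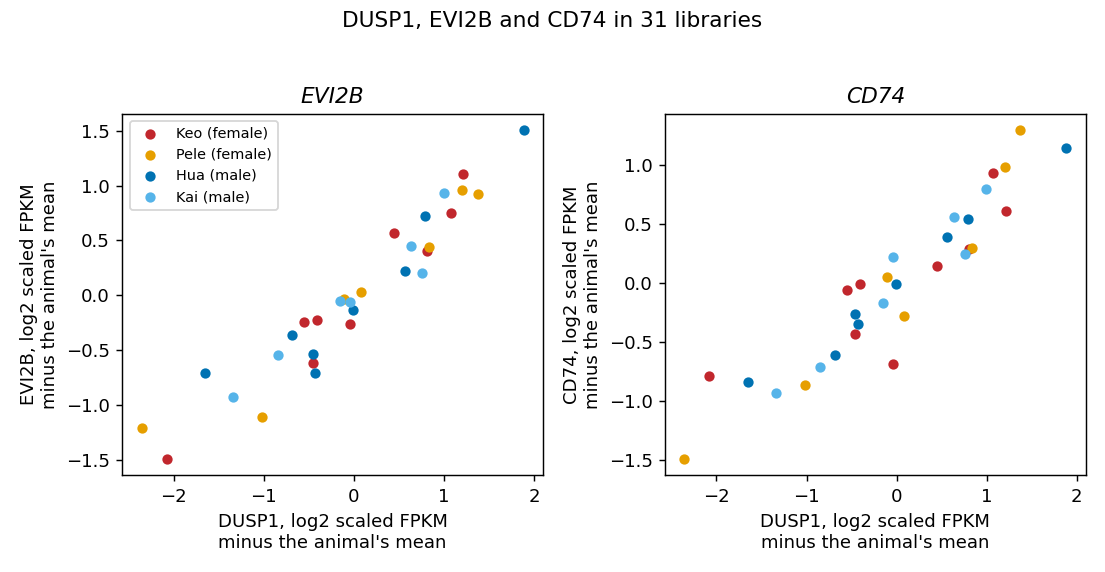
log2 of scaled FPKM of EVI2B and CD74 (vertical axes) against that of DUSP1 (horizontal axis), each with the mean of the animal subtracted. Each point is 1 of 31 libraries, colored by animal. The points of all 4 animals lie along one rising band, with r of 0.96 and 0.93.

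The closest genes of the other members were less close. For TSC22D3 they were GSR, which encodes glutathione reductase (r = 0.77), SRSF4 (r = 0.76) and PGAM4 (r = 0.74), and within animals r with GSR ran from 0.67 to 0.87. For NR3C1 they were CMTM6 (r = 0.70), ADAM10 (r = 0.69) and CNST (r = 0.65), of which CNST had r of -0.10 in Kai and -0.50 in Pele. For IL1R2 the closest gene, at r = 0.83, has no symbol, and the closest with a symbol were BPNT1 (r = 0.77), PXYLP1 (r = 0.73) and ICAM3 (r = 0.72), which became 0.50, 0.47 and 0.61 without the July and August libraries of Pele. For FKBP5 they were MED14 (r = 0.71), PRMT9 (r = 0.70) and PRKACB (r = 0.67). KLF9 was nearest to FAM26F (r = 0.69), TBATA (r = 0.63) and UBE3B (r = 0.61), and DDIT4 to TGIF2 (r = 0.68), MSC (r = 0.67) and USP19 (r = 0.67).

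Among themselves, no pair of members passed a test of correlation. Of 21 pairs, 0 passed after Benjamini-Hochberg adjustment of a permutation test that exchanged libraries within animals, with Pearson's r or with Spearman's rho. For the receptor, r of NR3C1 with the other 6 lay between -0.36 (KLF9) and 0.19 (FKBP5) on scaled values. On deposited FPKM r of NR3C1 was 0.46 with TSC22D3, against -0.061 on scaled values, and 0.43 with FKBP5. The pair farthest from 0 was TSC22D3 and DUSP1, at r = -0.46 (permutation p = 0.0236, adjusted p = 0.497) and rho = -0.51 (permutation p = 0.00776, adjusted p = 0.163). Their r was negative in each animal, from -0.66 in Keo to -0.23 in Kai. It was -0.57 without the 2 libraries farthest from the median, -0.32 without the July and August libraries of Pele, and -0.18 on deposited FPKM without scaling. FKBP5 and TSC22D3, both direct targets in human cells, had r = -0.15, which was 0.24 on deposited FPKM and 0.017 without the 2 farthest libraries.

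The proteins that hold and assist the receptor were taken from lists chosen, like the 7 genes, with earlier results of these data known. Of 15 chaperone and co-chaperone genes 14 were measured, and 3 passed between animals, beside 10.3% of all genes. FKBP4, the co-chaperone that competes with FKBP5 and favors movement of the receptor to the nucleus, averaged 51.2 ± 19.9 FPKM in Keo (n = 9), 46.8 ± 13.8 in Pele (n = 7), 46.8 ± 10.1 in Hua (n = 8) and 19.8 ± 9.76 in Kai (n = 7; SD, limma F test adjusted p = 0.00549). HSP90AB1, the constitutive form of the HSP90 chaperone that holds the receptor, averaged 414.1 ± 132.9 FPKM in Keo, 362.7 ± 83.7 in Pele, 426.4 ± 118.3 in Hua and 211.5 ± 53.5 in Kai (SD; limma F test adjusted p = 0.00703). Kai had the lowest mean for both genes, which were also called on the scaled values (adjusted p = 0.00212 and 0.000616). Marker lists held calls between animals as well, beside 10.3% of all genes. They were 7 of 8 B cell, 6 of 10 neutrophil, 5 of 11 monocyte, 5 of 9 cytotoxic and 3 of 14 T cell markers. For the erythroid list it was 1 of 13, for platelets 1 of 5 and for eosinophils and basophils 0 of 4. The B cell markers summed to 76.65 to 203.1 FPKM in Kai, against 162.8 to 915.9 in the other animals. The cytotoxic markers summed to 107.9 to 353.4 FPKM in Kai, against 81.1 to 759.7 in the other animals. The part of cell makeup in the values of FKBP4 and HSP90AB1 was not tested. STIP1, the adaptor between HSP70 and HSP90, passed between animals (adjusted p = 0.0347) and was higher in females by 0.76 ± 0.19 (SE; limma adjusted p = 0.0114), but not after scaling (0.200 and 0.142).

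Of 20 coregulators 19 were measured, and 5 were called higher and 0 lower in females, beside 12.1% and 0.937% of all genes, with a median difference of 0.44 beside 0.34 over all genes. The 4 with the smallest p were the coactivators NCOA1 (0.76 ± 0.24), EP300 (0.65 ± 0.21) and CREBBP (0.51 ± 0.17) and the corepressor NCOR1 (0.54 ± 0.18; SE, limma adjusted p = 0.0322, 0.0398, 0.0425 and 0.0398). None of the 5 was called after scaling. Between animals PRMT1, an arginine methyltransferase, and TRIM28, a corepressor, passed with ranges of 1.12 and 0.79 (limma adjusted p = 0.0212 and 0.0346), 2 of 19 beside 10.3% of all genes. After scaling TRIM28 did not pass (adjusted p = 0.0822). Of 9 genes for steroid handling 5 were measured, and 0 were called in limma by sex. Of the 5, 1 had an unadjusted p under 0.05, beside 32.0% of all genes.

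Other known glucocorticoid targets numbered 46, of which 34 were measured and 6 were called higher in females and 0 lower, beside 12.1% and 0.937% of all genes, with a median difference of 0.41 beside 0.34 over all genes. CEBPB, a transcription factor of granulocytes and monocytes, averaged 253.8 ± 103.2 FPKM in females (SD, n = 16) and 105.6 ± 46.4 FPKM in males (SD, n = 15). Its difference of 1.26 ± 0.20 (SE; limma adjusted p = 0.000342) was 0.89 after scaling (adjusted p = 0.00532), and it was the only one of the 6 called on that scale. NFKBIA, the inhibitor of NF-kB, differed by 0.66 ± 0.16, NFIL3, a transcription factor, by 0.62 ± 0.17 and CD163, the macrophage haptoglobin receptor that is also on the monocyte list, by 0.79 ± 0.22 (SE; limma adjusted p = 0.0101, 0.0142 and 0.0169).

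Between animals 5 of these 34 targets passed, beside 10.3% of all genes, and 9 passed after scaling, beside 7.35% of all genes. CEBPB (range 1.37), CD163 (1.42), NFKBIA (0.93) and MAOA, a monoamine oxidase (1.69), had the smallest p, with limma adjusted p of 0.00105, 0.00636, 0.0125 and 0.0232. CD163 averaged 58.5 ± 17.1 FPKM in Pele (n = 7), 43.7 ± 17.1 in Keo (n = 9), 40.2 ± 16.7 in Kai (n = 7) and 21.4 ± 6.88 in Hua (n = 8; SD). For summer minus winter, 0 genes of the chaperone, coregulator, steroid handling and other target lists were called in limma. At an unadjusted p under 0.05 the lists held 0, 2, 0 and 1 genes, beside 2.97% of all genes.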

How the data were processed

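Whole blood RNA, depleted of globin transcripts, was sequenced as 31 libraries. Reads were trimmed with Trimmomatic and mapped by the authors to the Ensembl dolphin genome turTru1 with Bowtie2 2.2.4, and FPKM from RSEM 1.2.18 were deposited. A second table of FPKM from Cufflinks 2.2.0 (TopHat2 2.3.13) served as an alternative, and held 8030 genes and 6 of the 7 genes. The de novo table and the deposited tables of differential expression (log2 fold changes with posterior probabilities of the authors' comparisons) were not used.

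FPKM sums ran from 1122496 to 1625174 per library. FPKM keep no read counts, so the depth is unknown and no counting interval was computed. Genome coordinates are left out, since no annotation of turTru1 was used here.

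Tests used limma 3.58.1 in R 4.3.3 (moderated statistics with a mean-variance trend, two-sided) on log2(FPKM + 1), over all 9610 genes with Benjamini-Hochberg adjustment and a threshold of 0.05. A fold change on that scale understates the change of low genes. Libraries were the unit, as in the study, although they are repeated samples of 4 animals. Exchanging whole animals between the sexes cannot give p under 0.333. The limma fits were also run on simulated data with known changes, drawn independently for each library. That simulation held no animal effect, so it cannot check the use of libraries as the unit. Correlations used 100000 resamples within animals.

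The members and lists were chosen with earlier results of these data known. Named beyond the 7 genes were, of each list of the receptor pathway, at most the 4 called genes with the smallest p per comparison, and for each of the 7 the 3 genes of highest r, of which 1 is not reported here. MMP8 was named after its values were seen. Alternatives were median-ratio scaling, a pseudocount of 0.1, a mean FPKM of at least 5, the Cufflinks table, leaving out each library or animal, animal as a block or random effect, means of the 4 animals, the time of year as a covariate and, chosen after seeing the data, leaving out the July and August libraries of Pele.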

Additional observations from a re-analysis of the deposited data

Results flagged for a closer look

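Each measured gene was screened for single libraries far from the rest, within each animal and within summer and winter. Of 42 groups 3 held such a library, where chance gives about 1 in 20 groups. FKBP5 measured 1.86 FPKM in the February library of Kai, the lowest of the 8 winter libraries, where the next was 5.49 FPKM. TSC22D3 measured 75.83 FPKM in the August library of Hua, the lowest of the 8 libraries of that animal, where the next was 135.24 FPKM. IL1R2 measured 48.45 FPKM in the April library of Hua, the highest of that animal, where the next was 29.67 FPKM.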

How the results depend on the processing

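The sources limit these values: 4 animals stand behind 31 libraries, sex and individual cannot be told apart, zeros are frequent for KLF9 and DDIT4, and the counts behind FPKM were not used. The count of members called kept its value in 62 alternative settings that left out no single library and moved in 2. It was 1 for females minus males without Pele, and 2 without the July and August libraries of Pele. Leaving out single libraries gave 0 to 2 members for females minus males and 1 to 2 between animals, and the counts for both kinds of seasonal test and for the cosine curve stayed at 0. Animal as a block or random effect changed no member call. Over all genes, calls for females minus males numbered 1252, against 232 with scaling, 690 with animal as a random effect, 0 with the means of the 4 animals, 564 without Kai, 295 without Keo and 225 without Pele. KLF9 and DDIT4 had no value at a mean FPKM of at least 5, nor KLF9 in the Cufflinks table.

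Member values in those settings include amplitudes of the cosine curve and ranges between animals, which cannot change sign. Of all these values, 388 kept their sign and side of the threshold. Another 3 passed it and 22 changed sign, all of the 22 short of the threshold. For females minus males these were KLF9 (-0.013) and DDIT4 (-0.22) without Hua, IL1R2 (-0.64) without Keo and KLF9 (-0.11) without Pele. For summer minus winter they were FKBP5 with scaling (0.058), without Hua (0.12) and without Kai (0.11), and DDIT4 without Keo (-0.074). In females they were DDIT4 without Keo (-1.34) and NR3C1 without Pele (0.22) or its July and August libraries (0.016). In males they were NR3C1 in the Cufflinks table (0.041) and without Kai (0.20), and KLF9 without Kai (-0.64). For the difference of the seasonal change they were NR3C1 with scaling (0.057), without Hua (0.075), without Pele (0.26) and without its July and August libraries (0.055). TSC22D3 (0.14 and 0.086) and DDIT4 (2.25 and 0.95) did so in the last 2 settings. The cause was not tested.

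Leaving out single libraries, summer minus winter ranged from -0.21 to 0.018 for NR3C1 and from -0.23 to 0.15 for FKBP5. In females it ranged from -0.35 to 0.024 for NR3C1 and from -0.26 to 0.75 for DDIT4, and in males from -0.16 to 0.19 for NR3C1 and from -0.29 to 0.43 for KLF9. The difference of the seasonal change ranged from -0.40 to 0.063 for NR3C1, from -0.078 to 1.10 for DUSP1 and from -0.90 to 0.11 for DDIT4.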

Other observations

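The June library of Keo held the highest deposited value of all 31 libraries for 3 members at once: FKBP5 at 35.31 FPKM, DDIT4 at 8.92 FPKM and IL1R2 at 150.48 FPKM. NR3C1 was also high there, at 26.67 FPKM, while KLF9 was listed at 0 and TSC22D3, at 165.05 FPKM, lay below its median in Keo of 225.74. On scaled values only FKBP5 was highest there, while DDIT4 was highest in the April library of Kai (8.99, against 7.02 in June of Keo) and IL1R2 in the March library of Keo (144.8, against 118.4). Without this library the difference between the sexes for IL1R2 was 0.47 and that for DDIT4 was 0.10, the lowest estimates when any single library was left out.

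The February library of Keo held the highest deposited TSC22D3 of the series, at 362.87 FPKM, together with IL1R2 at 139.14 FPKM and the lowest DUSP1 of that animal, at 19.91 FPKM. Its summed neutrophil markers were also the highest of all libraries on deposited values, at 17287 FPKM. On scaled values TSC22D3 was higher in the May library of Pele (261.6, against 248.0), and the neutrophil sum was higher in the March libraries of Keo (15344, against 11812) and Pele (13085).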
